A study of Oryza sativa Japonica Group with 8 samples.

Results

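Open flowers of rice were compared with flower buds, 1 poly(A) RNA-seq library each, out of 8 libraries of the japonica subspecies of Oryza sativa grown in a greenhouse. The comparison held 16038 of the 31187 loci in the table, those that reached 5 FPKM in whichever of the libraries compared was higher. FPKM counts sequenced fragments relative to transcript length and to the size of the library, so levels of different loci can be set side by side per length. Per the labels' protocols, buds were taken before flowering and flowers on the day they flowered. The other libraries served to describe each locus elsewhere in the plant: flag leaves before and after flowering, roots before flowering, milk grains and mature seeds. The leaf and root libraries pool several stages, per the labels. The library labelled roots after flowering had a leaf-like profile and defined no class of loci. The labels record no genotype beyond the subspecies and no treatment for any library.

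The rice flower sits in a spikelet enclosed by a pair of green husks, the lemma and the palea. It opens when the lodicules at its base swell and push the husks apart, the filaments of the stamens elongate, and the anthers shed pollen. The table gives assembly identifiers with no gene names, none of which matched the annotation at hand, so loci are described by level, position and profile across organs and no marker gene of bud, anther or leaf could be read. In whole organs, fewer cells of a type and less RNA per cell cannot be told apart. With 1 library per group no difference below has a replicate check, and each is a difference between those libraries.

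Most loci were close in bud and flower. The log2 ratio of flowers to buds, with 1 FPKM added to both, had a median of 0.01. The middle 50% of the loci lay between -0.28 and 0.30, and 90% of them between -0.98 and 0.95. Of the tested loci, 14551 (90.7%) were within 2-fold. At least 4-fold higher in flowers were 117 loci, 0.730% of those tested, and 70 loci, 0.436%, were at least 4-fold lower. At 2-fold these numbers were 722 (4.50%) and 765 (4.77%). The counts rest on the constant added and on the limit: with 5 FPKM added they were 35 and 26 at 4-fold and 354 and 375 at 2-fold, and with a limit of 20 FPKM they were 64 and 44, and 349 and 382. With 0.1 FPKM added the 4-fold counts were 170 and 106. The lowest tested locus had 5.0007 FPKM in its higher library and the highest locus left out had 4.9998. The 1224 tested loci under 6 FPKM held 9 that were 4-fold higher and 1 that was lower, and the 1404 untested loci between 4 and 5 FPKM held 7 and 3.

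**Figure D1:**
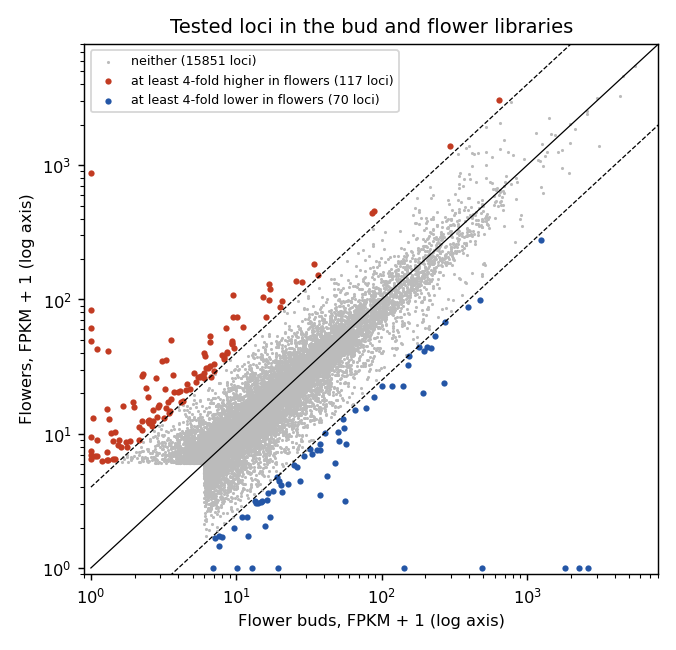
Each point is a tested locus, with its level in flower buds on the horizontal axis and in flowers on the vertical axis, both as FPKM + 1 on log axes. The solid line marks equal levels and the dashed lines a 4-fold difference; 117 loci lie above the upper dashed line and 70 below the lower one, and points on an axis edge are loci listed at 0 in 1 library.

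The loci past 4-fold took a small part of the message pool. The 117 higher loci held 0.274% of the bud library's summed FPKM and 1.69% of the flower library's. For the 70 lower loci the shares were 2.21% and 0.192%, and the bud share was 0.974% without those listed at 0 in flowers. The wider 2-fold lists took more: the 722 higher loci went from 3.33% to 10.001%, and the 765 lower ones from 8.92% to 2.86%. Median levels in the 2-fold lists were 5.80 FPKM in buds and 18.9 in flowers for the higher loci, and 19.97 and 6.75 for the lower ones.

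When loci were binned by the higher of their bud and flower levels, 2-fold differences were most frequent in the top bin. These bins use the values that make the ratio, and the 1 FPKM added understates changes of low loci. Above 500 FPKM there were 125 loci, of which 25 (20%) exceeded buds by 2-fold and 13 (10.4%) were below them by as much. At 4-fold these were 3 and 4. Of the loci above 500 FPKM, 4 were listed at 0 in buds or flowers, and these 4 are in both the 2-fold and the 4-fold counts. The median log2 ratio above 500 FPKM was 0.01 (0.0054). Between 100 and 500 FPKM there were 62 (6.13%) higher and 86 (8.50%) lower of 1012 loci, and a median log2 ratio of -0.19. Among the 100 most abundant loci of the flower library, 25 exceeded buds by 2-fold, 1 of them listed at 0 in buds, and 3 were below buds by 2-fold. Of those 25 loci, 20 reached 5 FPKM in leaves but not in roots before flowering. So did 33 of the 100 loci and 17.7% of all tested loci. Among the 100 most abundant loci of buds, leaving out 4 listed at 0 in flowers, 7 were higher and 11 lower in flowers at 2-fold. Each ranking favours loci that are high in its own library, and the rankings shared 68 loci. Bins by the highest level in the other organs gave another order. There 2-fold differences were most frequent under 1 FPKM, with 93 (13.7%) higher and 121 (17.9%) lower of 677 loci. At 100 FPKM and above in another organ, 182 (8.83%) were higher and 109 (5.29%) lower of 2061.

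What a locus did elsewhere in the plant went with the direction of its difference. Tested loci were sorted into 8 classes by whether they reached 5 FPKM in leaves (either stage), in roots before flowering and in seeds (either stage). The 2839 loci of leaves and not roots had a median log2 ratio of 0.21, and 1954 of them (68.8%) were above 0. Among them 295 (10.4%) passed 2-fold upwards in flowers and 46 (1.62%) downwards. The 976 loci of roots and not leaves had a median of -0.40, with 39 (3.996%) higher and 174 (17.8%) lower at 2-fold. The classes were set without the bud and flower libraries. Without the limit of 5 FPKM on bud and flower, the medians were 0.18 and -0.0799, and with a limit of 20 FPKM 0.48 and -0.65. When the leaf-like library labelled roots after flowering was counted as a root library, the class of leaves and not roots shrank to 523 loci and its median turned to -0.0145.

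The 4-fold lists divided among the classes as follows. Loci of leaves and not roots were 17.7% of those tested, but 60 of the 117 higher loci (51.3%) and 8 of the 70 lower ones (11.4%). Without loci listed at 0 in buds or flowers these numbers were 57 and 4. Loci of roots and not leaves were 6.09% of those tested, 10 of the 117 higher loci (8.55%) and 16 of the 70 lower ones (22.9%). The lower members came mainly from loci of roots alone, with 3 higher and 12 lower of 274. The 702 loci of roots and seeds had 7 higher and 4 lower at 4-fold, against the direction of their median. Loci below 5 FPKM in both leaves and roots gave 21 of the higher and 24 of the lower loci, from 2735 tested. Loci seen in both were 59.2% of those tested but held 26 of the higher and 22 of the lower loci.

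Presence in seeds shifted these medians by little. Loci of leaves alone had a median of 0.26 over 1001 loci, and loci of leaves and seeds 0.18 over 1838. Loci of roots alone and of roots and seeds had medians of -0.39 over 274 loci and -0.40 over 702. Loci of seeds alone had a median of -0.28 over 989 loci, with 31 higher and 102 lower at 2-fold. Loci below 5 FPKM in all 3 organs had -0.16. The 8914 loci found in all of leaves, roots and seeds were the steadiest. Their median was 0.02, and 175 (1.96%) were 2-fold higher and 137 (1.54%) lower.

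**Figure D2:**
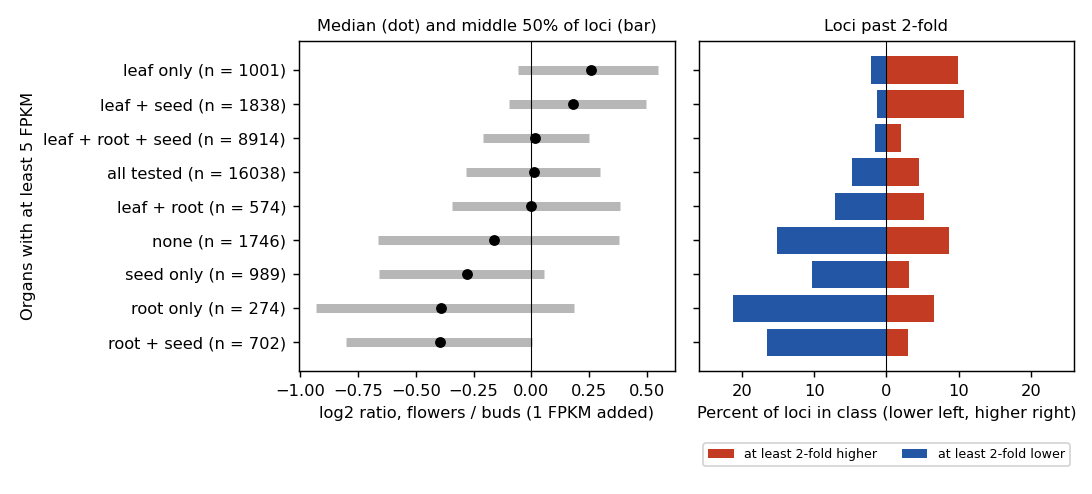
Tested loci are grouped by the organs in which they reached 5 FPKM, with the number of loci in each class. The left panel gives the median log2 ratio of flowers to buds and the middle 50% of loci, the right panel the percent of loci at least 2-fold higher or lower; leaf classes without root lie right of 0 at 0.26 and 0.18, and classes without leaf lie left of it.

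The leaning was graded. When loci were binned by the log2 ratio of their leaf level to the higher of root and seed, the median flower ratio went from -0.29 where leaves were 4-fold to 16-fold lower (1673 loci) to 0.43 where leaves were 4-fold to 16-fold higher (1023 loci). In that last bin 154 loci (15.1%) passed 2-fold towards flowers and 17 (1.66%) towards buds. Where leaves exceeded the others by 16-fold or more, 44 of 121 loci (36.4%) were 2-fold higher, 11 (9.09%) were lower, and the median was 0.58. The root gave the opposite slope. Loci at least 64-fold lower in roots than in the higher of leaf and seed had a median of 0.73 over 252 loci, and loci at least 16-fold higher in roots had -0.68 over 65. The gradients share the leaf and root values, so they are not separate observations. By seed level the medians ranged only from -0.35 to 0.27, and both ends lay below 0. From loci 4-fold to 16-fold lower in seeds (1940 loci) upwards, the median fell at each step, from 0.27 to -0.32. The bins still lower in seeds, of 62 and 334 loci, had -0.35 and 0.13.

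**Figure D3:**
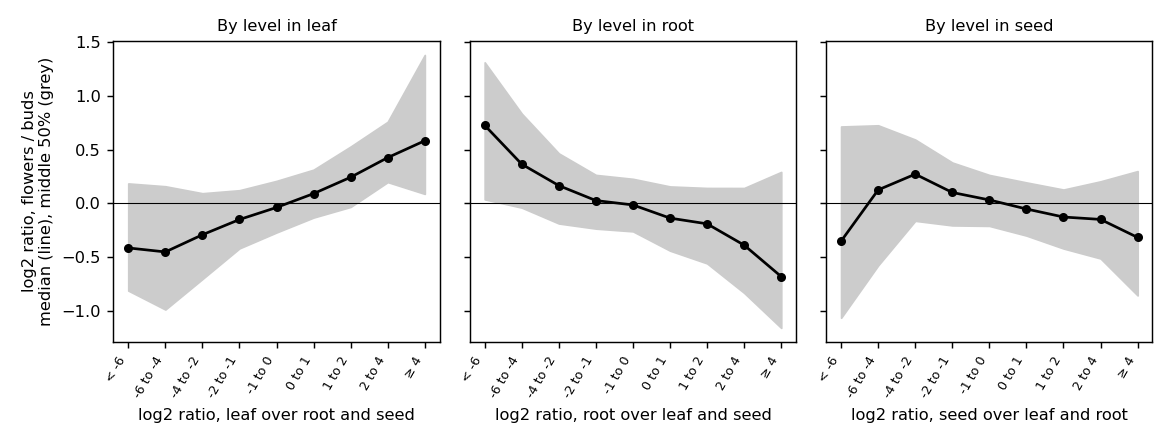
The median log2 ratio of flowers to buds (line) and the middle 50% of tested loci (grey) are plotted against the log2 ratio of leaf, root or seed level to the higher of the other organs. The line climbs with leaf level to 0.58 and falls with root level to -0.68. With seed level it first rises to 0.27 and then falls to -0.32.

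Organ-enriched loci gave the same order at higher stringency. These reached 10 FPKM in their organ and at least 5 times the level of the other organs, with 1 FPKM added, again without the libraries compared. Of the 866 leaf-enriched loci tested, 161 (18.6%) exceeded buds by 2-fold, 23 (2.66%) were below them by 2-fold, and 751 (86.7%) had a ratio above 0. Their median of 0.46 turned to -0.61, over 39 loci, when the library labelled roots after flowering was counted as a root library. Their share of summed FPKM was 6.17% in buds and 9.51% in flowers. Of 331 root-enriched loci 16 were 2-fold higher and 80 (24.2%) lower, and their share went from 1.78% to 1.19%. The 608 seed-enriched loci held 39 higher and 64 (10.5%) lower members at 2-fold. The tested members were 65.7% of all leaf-enriched loci, 30.6% of the root-enriched and 45.2% of the seed-enriched, since the others stayed below 5 FPKM in bud and flower. The level limit is on the higher of these libraries, so a difference helped a low locus to be included.

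Loci that differed between bud and flower also differed more often between the stages of other organs. Of the 4-fold lower loci 30 were expressed in leaves, and 11 of these (36.7%) were at least 4-fold lower in leaves after flowering than before, against 2.32% of all tested loci expressed in leaves. Of the 86 higher loci expressed in leaves, 15 (17.4%) were at least 4-fold higher in the later leaves, against 1.38%, and so were 2 of the 30 lower loci (6.67%). In the 2-fold lists, loci 4-fold higher in the later leaves were nearly as frequent on the lower side (6.70%) as on the higher side (37 of 500), while loci 4-fold lower in the later leaves were 25% of the lower and 3.60% of the higher side. Read the other way, the 286 loci that were 4-fold lower in the later leaves had a median flower ratio of -0.12, with 18 higher and 56 lower at 2-fold. The 170 loci 4-fold higher in the later leaves had 0.26, with 37 higher and 15 lower. Leaf-enriched loci leaned the same way around a higher centre. The 744 that were within 4-fold between the leaf stages had a median of 0.50, with 143 higher and 9 lower at 2-fold. The 92 that were 4-fold lower in the later leaves had a median of 0.15, still above 0, with 8 higher and 14 lower. The 30 that were 4-fold higher in the later leaves had 0.68, with 10 higher and 0 lower.

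In seeds, the loci of both directions differed more often between the stages, and more of them were higher at maturity than lower. Among expressed loci, 39 of 73 higher loci (53.4%) and 16 of 32 lower loci (50%) at 4-fold exceeded milk grains by 4-fold in mature seeds. Of all tested loci expressed in seeds, 17.7% did so. At 2-fold these shares were 47.8% of the higher and 47.6% of the lower loci. A 4-fold fall at maturity was also more frequent than the 3.83% of all tested loci expressed in seeds. In the 4-fold lists it was seen in 5 higher loci (6.85%) and 6 lower loci (18.75%). In the 2-fold lists the shares with a fall were 7.80% and 8.42%. Of the 217 seed-enriched loci that were 4-fold higher at maturity, 14 were higher and 30 lower in flowers at 2-fold, with a median of -0.45. Over all 2198 tested loci that reached 5 FPKM in seeds and were 4-fold higher at maturity, the median was -0.04, and 202 exceeded buds by 2-fold while 181 were below them. The 199 seed-enriched loci that were 4-fold lower at maturity had 15 and 18, with a median of -0.02, and the 477 loci with at least 5 FPKM in seeds and this fall had 33 and 32.

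The most abundant loci past 4-fold are given by position, on the coordinates of MSU Rice Genome Annotation Project Release 7 with starts counted from 1. Gene names, exons and UTRs are not annotated in the file. Among loci with a position of their own, the highest in flowers was XLOC_064127 on chromosome 9 (10845601 to 10847156). Its bud level was 642 FPKM and its flower level 3071. It had 2642 and 2055 FPKM in leaves before and after flowering, 765 in mature seeds, 9.75 in milk grains and 4.48 in roots before flowering. The next, XLOC_062013 on chromosome 8 (21171214 to 21172680), stood at 294 FPKM in buds against 1388 in flowers, and 3245 and 1343 in the leaf libraries against 2.40 in roots. Their log2 ratios were 2.26 and 2.23. Both had high levels in leaves and only a trace in roots before flowering. The first was higher in flowers than in either leaf library, and the second was highest in leaves before flowering.

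The third locus was more a flower than a leaf locus. It lay on chromosome 4 (34663055 to 34664723), at 84.2 FPKM in buds and 442 in flowers, against 62.9 and 18.6 in leaves before and after flowering, 56.9 in mature seeds and 0.140 in roots. On chromosome 2 a locus (31246225 to 31248818) had 35.6 and 151 FPKM in bud and flower and 176 in leaves before flowering. Another on that chromosome (29026070 to 29028259) had 19.7 and 96.5 FPKM, and 647 in leaves before flowering. A locus on chromosome 3 (1787648 to 1790957) had 15.9 and 129 FPKM and was highest in leaves after flowering, at 790 FPKM (789.7).

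A pair of loci on chromosome 4 followed mature seeds rather than leaves. The first (24687707 to 24689307) went from 16.0 FPKM in buds to 119 in flowers, and reached 265 in mature seeds. The second (24708716 to 24709910) had 8.47, 106 and 128 FPKM, and its log2 ratio of 3.50 was the highest of the 10 loci. In roots they had 0.313 and 0.230 FPKM, and in leaves before flowering 29.7 and 26.6. The last of the 10 were on chromosome 7 (13037520 to 13038640; 15.8 and 98.5 FPKM) and chromosome 1 (1338229 to 1339139; 18.9 and 86.4 FPKM). All 10 reached 5 FPKM in leaves, none of the 10 reached 5 FPKM in roots, and 8 were higher in mature seeds than in milk grains.

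The lower side had another profile. By level in buds, the first 3 loci were listed at 0 in flowers, and no fold is given for them. XLOC_001819 on chromosome 1 (23607348 to 23608583) had 2270 FPKM in buds (2270.1), 3614 in leaves before flowering and 1048 in mature seeds. XLOC_024893 on chromosome 2 (824850 to 827644) had 1811 FPKM in buds and was listed at 0 in leaves after flowering as well. The next spans only 109 bases on chromosome 2 (18074870 to 18074978), with 492 FPKM in buds, 692 in milk grains and a listed 0 in flowers, leaves and roots. An exact 0 at loci with over 1000 FPKM elsewhere can be a failed estimate. Among all tested loci, 7 were listed at 0 in buds and 9 in flowers. With at least 5 FPKM in the other library, each of these passes 4-fold by the rule. Without them the 4-fold counts were 110 higher and 61 lower.

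The other 7 were measured in both libraries, with log2 ratios between -3.49 and -2.003. A locus on chromosome 5 (5534528 to 5536110) had 476 FPKM in buds against 98.7 in flowers, with 3.72 FPKM or less in each other organ. One on chromosome 10 (2921766 to 2923678) was also floral, with 195 and 40.2 FPKM and at most 3.18 elsewhere. A further 4 of the 7 reached 5 FPKM in roots. They lay on chromosome 12 (623337 to 626113; 389 and 87.5 FPKM in bud and flower, 32.1 in roots) and on chromosome 5. Of the latter, the first (2080595 to 2082760) had 269.6 FPKM in buds against 66.5 in flowers, and 75.6 in roots. The second (24583250 to 24584945) had 267 FPKM in buds against 22.9 in flowers, with 16.1 in roots and at most 0.354 elsewhere. The last (739646 to 742966) had 231 FPKM in buds against 52.7 in flowers, and 74.9 in roots. It also had 12.7 and 7.78 FPKM in leaves before and after flowering.

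The remaining locus measured in both libraries was a leaf locus on chromosome 1 (26087572 to 26088335). Buds held it at 217 FPKM and flowers at 42.2, and it had 4301 in leaves before against 251 in leaves after flowering. Its level was thus lower in the later library of flower and leaf alike. The library labelled roots after flowering held it at 62.7 FPKM.

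**Figure D4:**
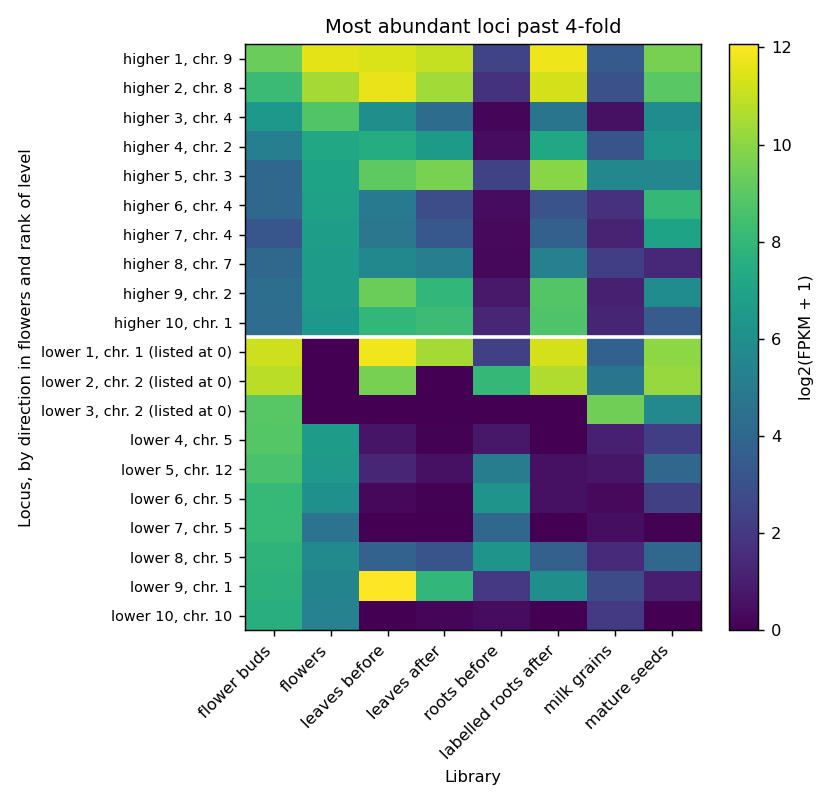
Colours give log2(FPKM + 1) in each of the 8 libraries for the 10 most abundant loci at least 4-fold higher in flowers (top) and the 10 at least 4-fold lower (bottom), numbered by level, with their chromosome. The upper loci are bright in leaves and dark in roots before flowering, where none reaches 5 FPKM; of the lower ones, 5 reach 5 FPKM in roots.

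Loci low in the other organs were spread in both directions. The 1746 loci below 5 FPKM in leaves, roots and seeds were 10.9% of those tested, and 1069 of them still reached 1 to 5 FPKM in another organ. The 1746 loci held 152 of the 722 loci 2-fold higher (21.1%) and 265 of the 765 lower (34.6%). Their middle 50% lay between -0.66 and 0.38, a wider range than that of all tested loci. For the 677 loci under 1 FPKM in every other organ it lay between -0.69 and 0.66 around a median of 0.02, with 93 (13.7%) higher and 121 (17.9%) lower at 2-fold. At 4-fold these floral loci held 11 higher and 6 lower members. They took 3.75% of the summed FPKM in buds and 3.60% in flowers, so their total was nearly level.

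Differing loci were found on all 12 chromosomes and in each of 10 equal parts along them. The share of 4-fold higher loci lay between 0.364% on chromosome 3 (8 of 2198) and 1.29% on chromosome 7 (16 of 1238), and that of lower loci between 0.162% on chromosome 7 (2 loci) and 0.690% on chromosome 9 (6 of 870). Median log2 ratios per chromosome lay between -0.03 and 0.04 on each. Among the 10 parts, the share of 2-fold higher loci ranged from 3.34% to 5.12% and that of lower loci from 3.67% to 5.71%. At 4-fold the parts were less even. The share of higher loci ranged from 0.108% (1 of 927) to 1.45% (13 of 899), and that of lower loci from 0.258% (3 of 1164) to 0.863% (8 of 927). Loci with a position shared with others were 29.2% of those tested, 32.5% of the 4-fold higher and 32.9% of the lower loci, close to one another.

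The length of the locus did go with the ratio. Lengths are of the whole span, introns included, and are given for the 11357 tested loci with a position of their own. The median log2 ratio was -0.22 for the 83 loci up to 500 bases, -0.15 for the 1428 between 1000 and 2000, 0.05 for the 4043 between 4000 and 8000 and 0.19 for the 1324 above 8000. Loci seen in both leaves and roots showed the slope when taken by themselves, from -0.17 (192 loci of 500 to 1000 bases) to 0.21 (952 loci above 8000). Loci of roots and not leaves had -0.45 at 500 to 1000 bases, -0.49 at 2000 to 4000 and -0.10 above 8000. Loci of neither had -0.21 at 500 to 1000 bases, -0.36 at 1000 to 2000 and -0.05 above 8000. Loci of leaves and not roots showed no slope, with medians between 0.19 and 0.26 in all bins of 20 or more loci. In leaves after against before flowering the medians went from 0.23 at 500 to 1000 bases to -0.02 above 8000, the opposite order, with 0.10 over 51 loci up to 500 bases. In mature seeds against milk grains the medians had no single order: -2.07 over 90 loci up to 500 bases, 0.66 at 500 to 1000, 0.39 at 2000 to 4000 and 0.53 above 8000. What in the RNA or the libraries sets this slope was not tested.

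Loci past 4-fold were short in both directions. Those at most 2000 bases long were 46 of 79 higher loci (58.2%) and 27 of 47 lower loci (57.4%), against 18.0% of all 11357. The median spans were 1664 and 1696 bases, and 3853 over all tested loci with a position of their own.

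**Figure D5:**
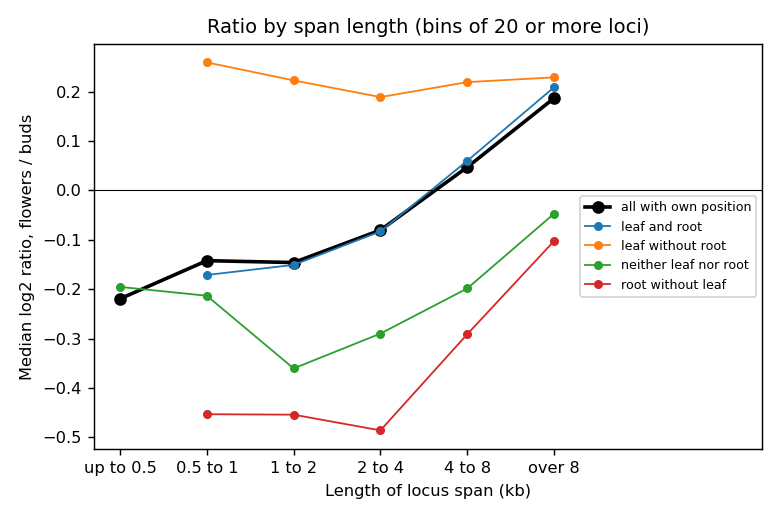
The median log2 ratio of flowers to buds is plotted against the length of the locus span, for all tested loci with a position of their own (black) and for the classes of expression in leaf and root; bins under 20 loci are not drawn. The black line climbs from -0.22 to 0.19, and the class of leaves without roots stays between 0.19 and 0.26.

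Differing loci had like neighbours more often than other loci did. Each tested locus with its own position was set beside the next such locus on either side. Of the 485 loci 2-fold higher in flowers, 76 (15.7%) had a neighbour that was also 2-fold higher, against 8.24% of all 11357 loci. Of the 549 lower loci, 77 (14.0%) had a lower neighbour, against 9.39%. With neighbours at least 5000 bases apart the shares were 10.7% against 5.80%, and 11.1% against 6.92%. Neighbours of the opposite direction were also somewhat more frequent than over all loci. Lower loci had a higher neighbour in 8.74% of cases, against 8.24%, and higher loci a lower one in 10.9%, against 9.39%. At 5000 bases or more these shares were 7.10% against 5.80%, and 8.25% against 6.92%.

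Most of the 2-fold loci with their own position stood alone, 409 of 485 higher and 472 of 549 lower. Runs of 2 numbered 24 higher and 34 lower. Runs of 3 or more such loci in 1 direction numbered 12, 9 higher and 3 lower in flowers. Loci in shared spans, or too low to be tested, may lie between the members. The longest run had 4 higher loci on chromosome 10 (20411584 to 20623510), with log2 ratios of 1.30 to 2.36, in a span that held 26 loci of the table. The run on chromosome 4 (24647901 to 24709910) held the pair of loci described above. Its other member had 56.5 FPKM in buds against 192 in flowers, and 635 in leaves before flowering. Its members lay at least 19408 bases apart.

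Members of some runs were alike across organs. On chromosome 12 (22580778 to 22602386) a run of 3 had 8.32, 2.05 and 44.0 FPKM in buds and 47.8, 9.85 and 142 in flowers. All of them had their highest level in leaves after flowering, at 1939, 589 and 931 FPKM. On chromosome 11 (22502007 to 22512404) another 3 had 0.333, 1.13 and 5.56 FPKM in buds and 11.9, 5.94 and 52.3 in flowers. These were less alike: 2 were highest in mature seeds, at 81.9 and 138 FPKM, and 1 in roots, at 46.5. Of 2 runs on chromosome 6, the first (2205577 to 2213827) had 9.18 to 16.6 FPKM in flowers and 33.3 to 48.3 in mature seeds. The second (2336429 to 2379273) was floral, with 2.42 to 14.7 FPKM in buds, 13.2 to 41.4 in flowers and at most 0.662 elsewhere.

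On chromosome 7 a run (26052222 to 26156006) began with a pair of leaf loci 3192 bases apart, which had 7.22 and 2.30 FPKM in buds, 34.9 and 14.6 in flowers and 364 and 220 in leaves before flowering (219.7 for the second). A further run on that chromosome (28004615 to 28056609) had members of unlike profile, since 1 was highest in leaves after flowering outside the flower, at 44.9 FPKM, and 1 in roots, at 9.84. The ninth higher run, on chromosome 3 (7946467 to 7979690), held 395 FPKM in buds and 860 in flowers (859.7) at its most abundant member, which had 344 in mature seeds.

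The 3 lower runs were on chromosomes 3, 7 and 10. The run on chromosome 10 (2950205 to 2967721) was floral: its members had 5.04, 10.4 and 32.5 FPKM in buds, 1.91, 3.75 and 12.6 in flowers, and at most 0.0935 in each other library. It lies close to the floral locus of that chromosome described above. The run on chromosome 3 (10583583 to 10601530) had 38.8, 6.19 and 17.5 FPKM in buds and 18.3, 2.07 and 7.27 in flowers, and 1 of them had 254 in roots. On chromosome 7 (24481252 to 24570410) buds had 14.1, 41.5 and 51.0 FPKM and flowers 4.22, 19.9 and 18.6, and the first member had 103 in roots. Whether neighbours in a run are separate genes, copies or parts of 1 transcript cannot be read from the table.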

How the data were processed

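The deposited table held FPKM values computed by the authors, 1 per locus and library, and paired-end libraries of 100 cycles, not strand-specific, per the labels' protocols. The submitters' processing notes list TopHat, Cufflinks and Cuffdiff, with versions and settings not given in the sources used. Every locus exceeded 1 FPKM somewhere. Summed FPKM lay between 569819 and 611306. Read depth is unknown: among 1512 loci below 0.15 FPKM in both flower libraries, log2 ratios in bins of 0.02 had at most 1.59% of loci in 1 bin, so no step of whole reads was found. Reads where sense and antisense loci overlap cannot be assigned without strand.

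Positions are on MSU Release 7, per the file headers. Starts were raised by 1, because spans of 4069 loci under 1500 bases were multiples of 3 in 36.9% of cases when starts were counted from 0 and 31.9% otherwise. A position was a locus's own when no other locus had it. Of the identifiers 0 matched the 39387 genes of the RefSeq table (assembly ASM3414082v1).

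Ratios were log2 with 1 FPKM added, which understates changes of low loci. No test was possible with 1 library per group. Python 3.11.15, pandas 2.3.3 and numpy 2.4.6 were used, and the rules were tested on simulated data. Loci named were the 10 most abundant past 4-fold in each direction with a position of their own, and all runs of 3 or more neighbours. The classes, rules and loci were chosen with earlier results of these data known. Alternatives were other pseudocounts, filters and scalings, own positions only, the eighth library as a root library and, added after seeing the data, omission of loci listed at 0.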

Additional observations from a re-analysis of the deposited data

How the results depend on the processing

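No paired analysis was possible because each group held 1 library. Counts of 4-fold higher and lower loci were 35 and 26 with a pseudocount of 5 and 64 and 44 with a filter of 20 FPKM, and the lower count was 106 with a pseudocount of 0.1. The 2-fold counts were 354 and 375 with a pseudocount of 5, and 349 and 382 with a filter of 20 FPKM. The median of all tested loci was 0 with no filter, and turned to -0.0258 with a filter of 20 FPKM, -0.0282 after median-of-ratios scaling and -0.0048 over own positions only. It is near 0, and no direction is drawn from it. The median of leaf-enriched loci, 0.46, was 0.36 with a pseudocount of 5, 0.37 with no filter and 0.51 with a filter of 20 FPKM. With the library labelled roots after flowering counted as a root library it turned to -0.61, over 39 loci in place of 866, since that library removes most leaf loci. For loci of leaves and not roots, 0.21, the values were 0.23 with a pseudocount of 0.1, 0.14 with 5, 0.18 with no filter, 0.48 with a filter of 20 FPKM and 0.23 after upper-quartile scaling. With the labelled root library counted, the median was -0.0145 over 523 loci. For loci of roots and not leaves, -0.40, they were -0.28 with a pseudocount of 5, -0.0799 with no filter and -0.65 with a filter of 20 FPKM. Without a filter the medians of root-enriched loci, -0.45, and seed-enriched loci, -0.16, were -0.0331 and -0.0129. The share of 2-fold loci with a like neighbour, 14.8%, was 10.9% with neighbours at least 5000 bases away. Of 86 values under alternatives, 57 stayed within their limits. The limits were a fixed fold for counts, and an interval over loci for medians and the neighbour share. Such intervals take loci as independent and do not measure the spread between replicate libraries. Why the others moved was not tested beyond the membership counts given. Precision of single values is unknown, since the table gives no counts.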
